A study of Homo sapiens with 6 samples.

Results

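The genes that encode the proteins of the mitochondrial ribosome, named MRPS for the small and MRPL for the large subunit, were compared between spheroid cultures of 2 human colorectal cancer cell lines. All features of the array whose annotated symbol begins with MRPS or MRPL and a digit were taken, and where a gene had several features the brightest on average was used. The symbols covered 87 features and 78 genes, of which 5 were pseudogenes or antisense transcripts and were kept apart. This left 73 protein-coding members of 14884 genes measured, by symbol 25 of the small and 48 of the large subunit. MRPS6, MRPS18C, MRPS24 and MRPL12 were not analysed here.

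SW620 was established from a lymph node metastasis and SW480 from the primary tumour of the same patient. Spheres of either line grew without serum and with added growth factors, and 3 arrays were hybridised for SW620 and 3 for SW480. No gene was altered and no agent tested, each line is a single model of its stage, and the design text names the arrays of a line technical replicates, so p-values measure the spread between such arrays and not between cultures. The study asked how the tumour-initiating cells that spheres enrich differ between the lines, but no adherent culture was among the arrays. Deposited values are log2 expression values, and 1 unit is a 2-fold difference in signal. Array medians lay between 4.04 and 4.07, and Pearson's r over features was 0.988 to 0.992 within a line and 0.963 to 0.965 between SW620 and SW480. Of 7 measured markers of colorectal epithelium 6 lay above the median feature (4.06), with KRT18 at 11.67 in SW620 and 11.55 in SW480, while KRT20 was at 4.06 in SW620 and 4.01 in SW480. Of these 7 markers 4 differed between the lines: CDX2 was lower (4.68 in SW620, 6.22 in SW480), and KRT8, KRT19 and VIL1 were higher by 0.40, 0.51 and 0.62. The 5 endothelial markers measured lay at 3.42 to 4.08 in SW620 and 3.42 to 4.22 in SW480, and of fibroblast and leukocyte markers DCN, CD14 and THY1 did not pass, LAPTM5 was lower, and LUM (7.95 in SW620, 4.73 in SW480), LYZ (5.72 in SW620, 3.87 in SW480) and CD68 were higher. The part of such genes' cells in the results was not tested. In whole cultures, fewer cells of a kind and less RNA per cell cannot be told apart. All 73 members lay above the median feature on average over the arrays.

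Mitochondria keep their own ribosomes, which make the few proteins that mitochondrial DNA encodes, all of them core subunits of the respiratory chain and the ATP synthase. The ribosomal RNAs come from mitochondrial DNA, whereas every protein of both subunits is made in the cytosol from nuclear genes and imported. The small subunit reads the messenger RNA and the large subunit joins the amino acids, at the inner membrane. Their genes lie scattered over the chromosomes and do not form clusters like those of bacterial ribosomal operons, and inherited defects in several of them impair oxidative phosphorylation.

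More members were higher than lower in SW620, by small amounts. In limma's moderated test with Benjamini-Hochberg adjustment over all genes, 23 members were higher, 9 were lower and 41 did not pass an adjusted p of 0.05. The share called was 43.8% of the members, against 35.6% of all genes and 49.8% of the 9475 genes above the median feature, so the members were called more often than all genes and less often than the brighter ones, without a test of either difference. By direction, 31.5% of the members were higher, against 16.0% of all genes and 22.5% of the brighter ones. Lower were 12.3% of the members, against 19.5% of all genes and 27.4% of the brighter ones. No member changed by as much as 2-fold, whereas 904 genes in all were called at that size. The median size of a called difference was 0.43 among the members and 0.52 among the brighter genes on the log2 scale. The arrays of the lines did not overlap for 43 of the 73 members, beside 45.7% of all genes and 60.0% of the brighter ones. The standard error of a member's difference ran from 0.0784 to 0.123, the smallest difference called was 0.23 and the largest not called 0.25, so smaller differences were hardly detectable with 3 arrays per line.

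**Figure D1:**
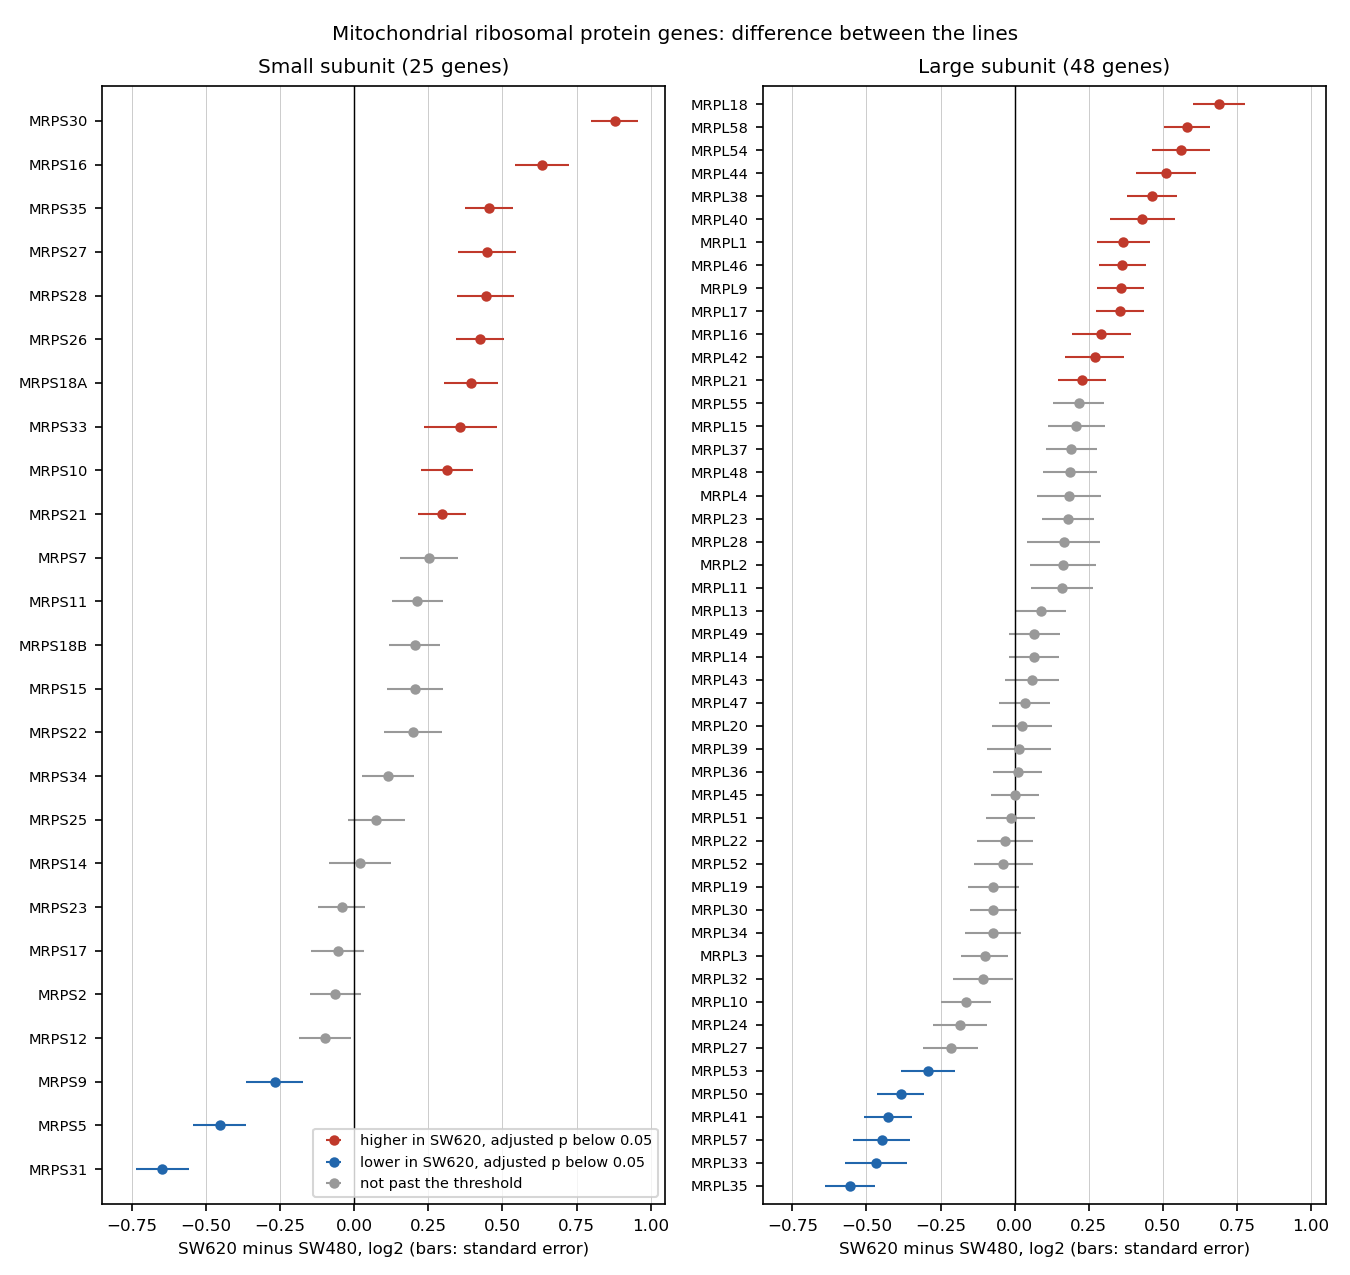
Difference between the lines (SW620 minus SW480, log2 scale, horizontal axis) for each of the 25 small and 48 large subunit genes, with bars for the standard error of limma's fit over 3 arrays per line. Subunits are assigned by symbol. Red genes are higher and blue genes lower in SW620 at an adjusted p below 0.05. MRPS30 (0.88) and MRPS31 (-0.65) stand at the ends of the MRPS genes.

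RefSeq promoters (GRCh38.p14, 250 bases before to 50 after a gene's start) were found for 65 of the 73 members, and the first listed was used for genes with several. The 6 sequences shown are those of the members with the largest differences that had an entry, 2 higher ones and 1 lower one of each subunit, and all run 5′ to 3′ on the strand of the gene. Capitals mark matches, on either strand, to 4 short motifs, none of which contains another: CCGGAAG of the ETS family that includes the GABP factor, AAGATGG of YY1, CATGCGC of NRF1 and GGGCGG of SP1. GABP, YY1 and NRF1 are known regulators of nuclear genes for mitochondria. The positions are chr5:44808697-44808996, plus strand for MRPS30, chr10:73252595-73252894, minus strand for MRPS16, chr6:159789562-159789861, plus strand for MRPL18, chr17:75012420-75012719, plus strand for MRPL58, chr13:40771141-40771440, minus strand for MRPS31 and chr2:27771469-27771768, plus strand for MRPL33.
MRPS30: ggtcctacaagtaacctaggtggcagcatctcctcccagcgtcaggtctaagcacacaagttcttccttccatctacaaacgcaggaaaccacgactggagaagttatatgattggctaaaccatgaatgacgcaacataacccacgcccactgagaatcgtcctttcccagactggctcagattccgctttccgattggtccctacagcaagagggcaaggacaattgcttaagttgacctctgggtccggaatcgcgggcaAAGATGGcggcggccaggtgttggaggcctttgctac
MRPS16: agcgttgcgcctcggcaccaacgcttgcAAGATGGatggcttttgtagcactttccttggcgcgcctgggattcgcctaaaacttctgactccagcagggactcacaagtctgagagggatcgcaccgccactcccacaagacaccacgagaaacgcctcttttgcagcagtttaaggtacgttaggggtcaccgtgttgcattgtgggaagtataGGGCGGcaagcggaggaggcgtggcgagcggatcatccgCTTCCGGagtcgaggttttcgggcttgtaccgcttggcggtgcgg
MRPL18: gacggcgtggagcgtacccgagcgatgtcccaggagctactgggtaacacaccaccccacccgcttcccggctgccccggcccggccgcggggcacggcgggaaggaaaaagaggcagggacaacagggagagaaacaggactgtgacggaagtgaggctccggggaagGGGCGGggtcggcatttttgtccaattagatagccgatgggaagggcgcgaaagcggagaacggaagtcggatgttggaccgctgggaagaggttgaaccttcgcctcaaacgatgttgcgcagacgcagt
MRPL58: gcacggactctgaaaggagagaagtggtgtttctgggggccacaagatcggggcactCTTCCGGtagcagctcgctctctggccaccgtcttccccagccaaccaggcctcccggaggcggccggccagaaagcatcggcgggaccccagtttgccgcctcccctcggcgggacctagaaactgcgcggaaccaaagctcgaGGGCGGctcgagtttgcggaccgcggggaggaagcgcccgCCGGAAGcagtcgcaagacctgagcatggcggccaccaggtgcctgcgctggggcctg
MRPS31: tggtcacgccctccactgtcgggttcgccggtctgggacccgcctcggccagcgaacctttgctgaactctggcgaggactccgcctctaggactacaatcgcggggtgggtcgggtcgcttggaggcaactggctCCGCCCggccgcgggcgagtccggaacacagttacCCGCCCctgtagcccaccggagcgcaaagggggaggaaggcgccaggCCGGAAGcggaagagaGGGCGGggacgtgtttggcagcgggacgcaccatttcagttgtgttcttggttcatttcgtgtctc
MRPL33: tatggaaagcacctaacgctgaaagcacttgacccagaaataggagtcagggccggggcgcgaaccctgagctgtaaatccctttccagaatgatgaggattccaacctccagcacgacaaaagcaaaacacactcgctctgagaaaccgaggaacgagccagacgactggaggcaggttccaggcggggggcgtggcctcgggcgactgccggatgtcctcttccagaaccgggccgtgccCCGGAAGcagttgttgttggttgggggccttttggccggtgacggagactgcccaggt

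MRPS30 and MRPS16 hold the YY1 letters once each, in MRPS30 just downstream of the start. The ETS letters occur once in MRPS16, MRPS31 and MRPL33 and 2 times in MRPL58, and the SP1 letters 3 times in MRPS31. Over the 65 members the ETS letters were in 43.1% of promoters, against 19.4% of 7323 promoters of the brighter genes and 10.7% of all 27305. The YY1 letters were in 33.8%, against 7.63% and 6.06%. NRF1 (9.23%, against 7.73% and 4.67%) and SP1 (61.5%, against 70.0% and 44.6%) were nearer to other genes. The ETS letters were in 11 of 21 promoters of higher members, 3 of 8 of lower ones and 14 of 36 of those not called, and the YY1 letters in 8 of 21, 1 of 8 and 13 of 36. The NRF1 letters were in 1 of 21, 0 of 8 and 5 of 36, and the SP1 letters in 15 of 21, 6 of 8 and 19 of 36. A match is a description of letters, and binding was not measured. Of the factors, NRF1 did not pass (6.57 in SW620 and 6.63 in SW480, -0.0510), and ESRRA, another regulator of mitochondrial genes, differed by -0.0287 and did not pass. The genes of GABP, YY1 and SP1 were not analysed here.

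**Figure D2:**
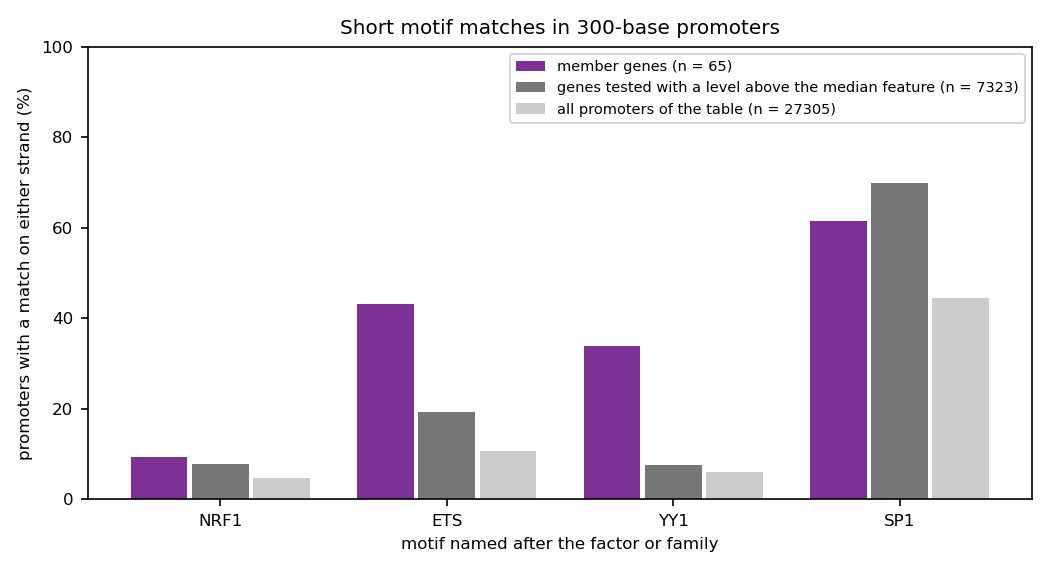
Share of promoters with at least 1 match to each motif (bars from 0, percent) for 65 member genes, 7323 genes tested with a level above the median feature, and all 27305 promoters of the table. The ETS letters (43.1%) and the YY1 letters (33.8%) were more frequent among the members than in the other sets, and the differences were not tested.

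With the subunits assigned by symbol, the shift was larger in the small one. Its median difference was 0.20, against 0.0661 in the large subunit and 0.0132 over all genes. Of the 25 small subunit genes 10 were higher, 3 were lower and 12 did not pass. Of the 48 large subunit genes 13 were higher, 6 were lower and 29 did not pass. The share called was 52% in the small and 39.6% in the large subunit, against 35.6% of all genes and 49.8% of the brighter ones. Higher were 40% and 27.1%, against 16.0% of all genes and 22.5% of the brighter ones. Lower were 12% and 12.5%, against 19.5% and 27.4%. The median level of the small subunit genes was 7.87, 7.99 and 7.89 on the SW620 arrays, against 7.76, 7.61 and 7.84 on the SW480 arrays. The large subunit genes had medians of 7.25, 7.32 and 7.26 on the SW620 arrays, against 7.19, 7.20 and 7.06 on the SW480 arrays. Neither pair of array medians overlapped. The medians over all genes did not overlap either, and they ran in the other direction. They were 4.63, 4.64 and 4.62 on the SW620 arrays, against 4.75, 4.75 and 4.73 on the SW480 arrays. The difference between the subunits was not tested. The protein of MRPS30 and that of MRPS18A sit in the large subunit of the human mitoribosome despite their symbols, and both genes were higher. By place of the protein 8 of 23 small subunit genes were higher, and the large subunit gained these 2 higher genes. The shares higher and called in the subunits therefore lie closer together by place than by symbol.

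Among the MRPS genes, MRPS30, whose protein sits in the large subunit, differed most of all 73 members. The gene, once called PDCD9 for a link to programmed cell death, holds the YY1 letters shown in its promoter above. Its levels were 8.95, 9.01 and 8.98 in SW620, against 8.05, 8.11 and 8.16 in SW480. The arrays of either line lay within a narrow band and the lines did not overlap, a 1.84-fold higher signal in SW620 (0.88, standard error 0.0802, adjusted p = 1.76e-06 by limma). MRPS16, a protein with a bacterial counterpart whose loss in humans causes a fatal neonatal disorder of mitochondrial translation, had 8.96, 8.94 and 8.75 in SW620, against 8.33, 8.26 and 8.16 in SW480. Its difference of 0.63 (adjusted p = 0.000105 by limma) was matched by its other, dimmer feature, which differed by 0.54. MRPS35 was the brightest member, with 10.65, 10.68 and 10.55 in SW620, against 10.18, 10.17 and 10.16 in SW480 (0.46, adjusted p = 0.000607 by limma). MRPS27, a pentatricopeptide repeat protein of the small subunit, had 7.77, 7.77 and 7.71 in SW620, against 7.23, 7.16 and 7.50 in SW480. The third SW480 array lay closest to SW620 but remained below it, and the difference was 0.45.

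The other MRPS genes that were higher did so by less. MRPS28, the counterpart of bacterial S1, differed by 0.44, MRPS26 by 0.42 and MRPS18A, 1 of 3 paralogues of bacterial S18, by 0.39. MRPS18B, the other measured paralogue, did not pass (0.20, adjusted p = 0.0847 by limma), and its 7 features held identical values on every array. MRPS10 and MRPS21, both with bacterial counterparts, differed by 0.31 and 0.29. MRPS33 passed with 6.67, 6.66 and 6.22 in SW620, against 6.29, 6.15 and 6.04 in SW480, although the third SW620 array fell within the range of SW480. MRPS7, a protein of the head of the small subunit, was just outside the threshold (0.25, adjusted p = 0.0654 by limma). MRPS2 was the dimmest of the subunit, and its features disagreed: the brighter differed by -0.0636 and did not pass, and the dimmer was lower by 0.26 (adjusted p = 0.0304 by limma over features).

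Only MRPS31, MRPS5 and MRPS9 were lower in the small subunit. MRPS31, which is specific to mitochondria, had 6.96, 7.03 and 6.94 in SW620, against 7.76, 7.50 and 7.61 in SW480. Every SW620 array lay below every SW480 array, a 1.57-fold lower signal in SW620 (-0.65, standard error 0.0897, adjusted p = 7.81e-05 by limma). Its pseudogene MRPS31P5, whose sequence is similar and whose probes may share signal with it, differed by 0.0313 and did not pass. MRPS5, the counterpart of a bacterial protein that affects the accuracy of decoding, had 8.23, 8.42 and 8.30 in SW620, against 8.67, 8.80 and 8.83 in SW480 (-0.45, adjusted p = 0.00127 by limma). MRPS9 was just inside the threshold with -0.27 (adjusted p = 0.0452 by limma).

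Among the MRPL genes, MRPL18 and MRPL58 led those that were higher. MRPL18 belongs to the central protuberance, the crest that faces the small subunit. Its levels were 8.31, 8.28 and 8.09 in SW620, against 7.49, 7.59 and 7.54 in SW480, and the lines stood well apart (0.69, or 1.61-fold, adjusted p = 3.96e-05 by limma). MRPL58, also known as ICT1, is a peptidyl-tRNA hydrolase that frees stalled mitoribosomes. It had 10.29, 10.30 and 10.30 in SW620, against 9.75, 9.71 and 9.69 in SW480. These were the tightest SW620 arrays of any called member, with an SD of 0.0048 (n = 3), and the difference was 0.58 (adjusted p = 6.11e-05 by limma). MRPL54 was the dimmest member, with 5.18, 4.89 and 5.19 in SW620, against 4.48, 4.59 and 4.49 in SW480 (0.56). MRPL44, which resembles an RNase III enzyme, had 7.74, 7.83 and 7.59 in SW620, against 7.31, 7.29 and 7.03 in SW480. The lines did not overlap and the difference was 0.51. Its dimmer feature, at 3.57 in SW620 and 3.31 in SW480, lay below the 25th percentile feature (3.53) in SW480.

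MRPL38, MRPL40 and MRPL46, which are specific to mitochondria, differed by 0.46, 0.43 and 0.36. MRPL38 and MRPL46 are further proteins of the central protuberance. MRPL1, a protein of the mobile stalk at the exit of transfer RNA, differed by 0.37, and MRPL9 and MRPL17, both with bacterial counterparts, by 0.36 each. MRPL16, near the peptidyl transferase centre, differed by 0.29, MRPL42 by 0.27 and MRPL21 by 0.23. Within the large subunit, MRPL42 was nearest the threshold on the inner side (adjusted p = 0.0487 by limma) and MRPL55 on the outer side (0.22, adjusted p = 0.0713 by limma). The brightest gene of the subunit, MRPL45, which lies at the exit tunnel and anchors the ribosome to the inner membrane, had 10.23, 10.25 and 10.16 in SW620, against 10.24, 10.19 and 10.21 in SW480. Its arrays overlapped fully, and its difference was 6e-04 with a standard error of 0.0800.

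The 6 large subunit genes that were lower began with MRPL35. It had 8.31, 8.27 and 8.21 in SW620, against 8.87, 8.71 and 8.87 in SW480 (-0.56, or 1.47-fold lower in SW620, adjusted p = 0.000176 by limma). MRPL33 had 6.33, 6.30 and 6.28 in SW620, against 6.74, 7.001 and 6.58 in SW480. The SW480 arrays were spread over a wider range than those of SW620, without overlap (-0.47, adjusted p = 0.00335 by limma). MRPL57 differed by -0.45, MRPL41 by -0.43, MRPL50 by -0.38 and MRPL53 by -0.29. All 4 encode proteins specific to mitochondria.

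**Figure D3:**
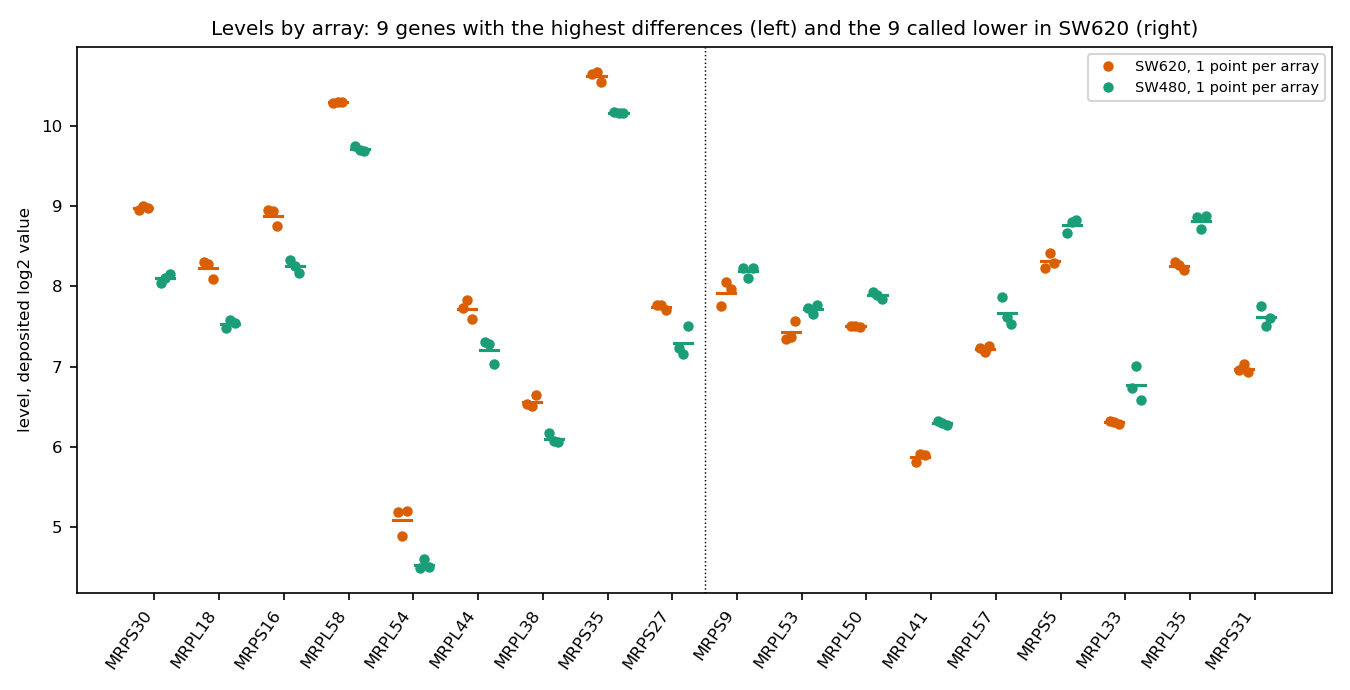
Deposited log2 value (vertical axis) of 18 member genes on each array, SW620 in orange left of SW480 in green, with a horizontal bar for the mean of 3 arrays. The 9 genes with the highest differences are left of the dotted line and the 9 called lower in SW620 right of it, and in none of the 18 do the arrays of the lines overlap.

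Grouped by origin, calls in both directions were found among genes of proteins with a bacterial counterpart and among those specific to mitochondria. MRPS30 and MRPS18A, both higher, were kept as a group of their own and are not counted here. In the small subunit 4 of 13 genes with a bacterial counterpart were higher and 2 lower, and of 10 specific to mitochondria 4 were higher and 1 lower. In the large subunit 6 of 28 genes with a bacterial counterpart were higher and 2 lower, and of 20 specific to mitochondria 7 were higher and 4 lower. The shares called were 46.2%, 50%, 28.6% and 55% in this order, against 35.6% of all genes and 49.8% of the brighter ones. The medians of these groups were 0.20, 0.20, 0.0497 and 0.13 in the same order. No difference between the groups was tested.

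Of the 32 called members, 24 passed under each of the 16 other settings, and the sign of a called member turned in 0 cases. MRPS10 no longer passed without SW620 replicate 2 (adjusted p = 0.0608). MRPS9 no longer passed without SW620 replicates 1 or 3 or any SW480 array, with adjusted p up to 0.184 without SW620 replicate 1. MRPS33 no longer passed without SW620 replicates 1 or 2 or SW480 replicates 2 or 3 (up to 0.14). MRPL53 no longer passed without SW620 replicates 1 or 2 or SW480 replicates 1 or 3 (up to 0.0823). MRPL16 no longer passed without SW620 replicates 1 or 3 or SW480 replicates 1 or 3 (up to 0.159). MRPL42 no longer passed without any single array other than SW620 replicate 1 (up to 0.182), and MRPL21 without any array (0.0543 to 0.158). MRPS21 passed with each array left out but not at an adjusted p below 0.01 (0.012). Other scalings also ended the calls of MRPL21 and MRPL42 (second quantile normalization, centring on the median feature and cyclic loess), MRPL16 (cyclic loess) and MRPS9 (centring on the 75th percentile). The adjusted p-values of these fits are limma's.

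The 9 genes that were lower lay on 3 chromosomes. Chromosome 2 held MRPL33, MRPL53, MRPL35, MRPS5 and MRPS9, chromosome 13 held MRPL57 and MRPS31, and chromosome 9 held MRPL50 and MRPL41. On chromosome 2 a further member, MRPL44, was higher, and MRPL19 and MRPL30 did not pass. The 952 other genes measured on chromosome 2 had a median difference of -0.0968, with 7.04% higher and 34.1% lower. On chromosome 9 the 575 other genes had a median of -0.0860, with 9.04% higher and 28.3% lower, and on chromosome 13 the 310 other genes had a median of 0.0129, with 21.3% higher and 27.4% lower. The genes that were higher were spread over 15 chromosomes, with 3 each on chromosomes 6 and 11.

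Each member was therefore set beside the 20 measured genes on either side of it, other members left out. The neighbours of MRPS31 had a median difference of -0.46, and 22 of these 40 genes were lower and 3 higher. Around MRPL35 22 of 40 were lower and 0 higher (median -0.31), around MRPL33 19 and 0 (-0.23), and around MRPS5 19 and 2 (-0.24). Near MRPL57, at an end of its chromosome with 32 neighbours, 17 were lower and 1 higher (-0.28). Around MRPS16, in turn, 20 of 40 neighbours were higher and 2 lower (0.26), and around MRPS27 21 and 6 (0.25). All 9 lower members had a neighbour median below 0, from -0.46 to -0.0876, and 22 of 23 higher members had one above 0, up to 0.26. The exception among the higher members was MRPL54 (-0.0048). Of the 41 members not called, 24 had a neighbour median above 0 and 17 below. Over all genes the median difference was 0.0132, with 16.0% higher and 19.5% lower. How often a neighbour median lies above 0 over all genes was not determined. MRPS30 was the member whose difference exceeded that of its neighbours most, 0.88 beside a median of 0.0816.

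Over the 73 members the difference correlated with the neighbour median with Pearson's r of 0.78 and Spearman's rho of 0.71. For comparison, with all genes allowed as neighbours r was 0.77 over the members, 0.28 over all 14884 genes and 0.33 over the 9475 brighter ones. In the same order rho was 0.71, 0.33 and 0.42. The sets are unlike in spread: member differences ran from -0.65 to 0.88, and those over all genes and the brighter ones from -7.38 to 5.45. With 10 or 40 neighbours on either side, settings added after the data were seen, r over the members was 0.73 and 0.78. Genes are not independent, and 25 of the members share neighbours with another member, so these values describe the 6 arrays. Gene copy number was not measured here, and its part in the pattern was not tested.

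**Figure D4:**
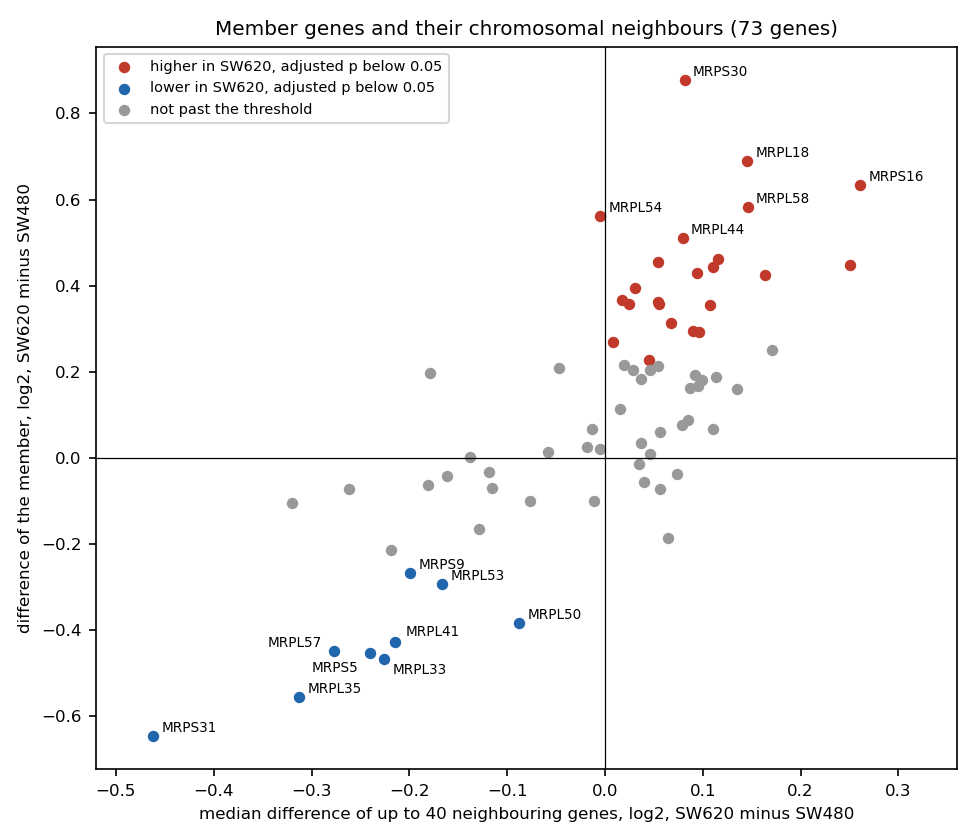
Difference of each of the 73 member genes (vertical axis, log2, SW620 minus SW480) against the median difference of up to 40 measured neighbours on its chromosome (horizontal axis, same unit). The 9 genes lower in SW620 (blue) all lie left of 0, and 22 of the 23 higher ones (red) lie right of it.

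Several other genes of mitochondrial translation lie near members. PTCD3, a small subunit protein whose symbol lies outside the MRPS and MRPL series, has 1 measured gene between it and MRPL35 and was lower by 0.69 (8.11 ± 0.0018 in SW620 and 8.81 ± 0.0515 in SW480, SD, n = 3 arrays each). MTRF1, a release factor paralogue, is 7 measured genes from MRPS31 and was lower by 0.69. TRMT61B, which methylates mitochondrial RNA, is 7 genes from MRPL33 and was lower by 0.34. CHCHD1, a further small subunit protein, is 6 genes from MRPS16 and was higher by 0.97 (7.01 ± 0.12 in SW620 and 6.04 ± 0.14 in SW480, SD, n = 3 arrays each). OXA1L, which inserts new proteins into the inner membrane, is next to MRPL52 and was higher by 0.41 although MRPL52 differed by -0.0377. TWNK, the mitochondrial DNA helicase, is next to MRPL43, and neither passed (-0.16 and 0.0589).

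For 20 of the 65 members another gene starts within 1000 bases in the opposite direction, and in 10 such cases both genes were measured, MRPL46 and MRPS11 being listed once from either side. SKA3, a spindle protein gene whose start is 106 bases from that of MRPL57, was lower by 0.84, beside -0.45 for MRPL57. ZNF189, 233 bases from MRPL50, was lower by 0.34, beside -0.38. HIRA, a histone chaperone gene 812 bases from MRPL40, was higher by 0.43, as MRPL40 was, and PTCD2, 133 bases from MRPS27, was higher by 0.23, beside 0.45. MRPL46 was higher by 0.36, while MRPS11, 320 bases from it, did not pass (0.21, adjusted p = 0.0721 by limma). FAU, which encodes a cytosolic ribosomal protein fused to a ubiquitin-like one, was higher by 0.30, beside 0.0662 for MRPL49. Both genes were called higher in 2 of the 10 cases and both lower in 2, and in 0 were they called in opposite directions. In the other cases at least 1 of the genes was not called, so opposite calls could not occur there. Over all genes 16.0% were called higher and 19.5% lower. How often such pairs share a call over all genes was not determined.

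Partners of the mitoribosome were read from lists of translation, assembly and maintenance genes. Of the 112 symbols listed, some of them former names, 50 were measured, and the others were not analysed here. Of the 50, 15 were higher, 12 lower and 23 not past the threshold (median -0.0054). Over all genes 35.6% were called (16.0% higher, 19.5% lower), and of the brighter genes 49.8%, so that 27 calls among 50 partners are near the share of brighter genes. Of 25 assembly and rRNA modification factors, 7 were higher and 5 lower. DDX28, a helicase of large subunit assembly, had the largest difference among them (6.66 ± 0.0639 in SW620 and 5.57 ± 0.0617 in SW480, SD, n = 3 arrays each; 2.13-fold higher in SW620, adjusted p = 3.04e-07 by limma). METTL17, a small subunit assembly factor, was higher by 0.50, whereas the GTPase GTPBP10 and the rRNA methyltransferase MRM2, both of large subunit assembly, were lower by 0.55 and 0.54. Of 11 translation factors, 3 were higher and 4 lower. MTRF1L, the main release factor, was higher by 0.78 and TACO1, an activator of cytochrome oxidase synthesis, by 0.56, while MTRF1 was lower. MRRF, the recycling factor, was lower by 0.46, with an SW620 SD of 0.44. MRRF no longer passed without SW620 replicate 3 (-0.26, adjusted p = 0.188) and, by limma, without SW620 replicate 1 or any SW480 array (0.0754 to 0.12).

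Of the 3 measured mitoribosomal proteins with other symbols, CHCHD1 and DAP3 were higher and PTCD3 lower. DAP3, which is also known from apoptosis, differed by 0.42. Of 24 symbols listed for charging of mitochondrial transfer RNA, 4 were measured. KARS1 and GARS1 serve cytosol and mitochondria alike, and KARS1 was 2.24-fold higher and GARS1 1.62-fold lower in SW620. GATB and QRSL1, subunits of the enzyme that makes mitochondrial glutaminyl-tRNA, were higher by 0.44 and 0.39. Of 7 measured genes in the list for mitochondrial transcription and DNA maintenance, which also held the regulators MYC, NRF1 and ESRRA, 0 were higher. MYC alone was lower, by 0.25 (adjusted p = 0.0286 by limma), and POLRMT, TWNK, MTERF1 and MTERF2 did not pass. MYC no longer passed when SW620 replicates 2 or 3 or any SW480 array was left out (adjusted p 0.0687 to 0.0727 by limma). Genes of mitochondrial DNA, the ribosomal RNAs among them, were not analysed here.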

How the data were processed

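Total RNA of spheroid cultures was converted to sense-strand cDNA, labelled with biotin and hybridised to 6 Affymetrix arrays, 3 per line. The deposited log2 values, 1 per feature and array, were made by the authors, and the submitters' processing notes name Partek and RMA. The sources used here give no version, setting or genome build. RMA corrects background, makes arrays alike in distribution and combines the probes of a feature, which can understate differences of dim genes. The base 2 was read from the range of the values (1.99 to 13.9). Platform annotation gave 1 symbol to 16098 of 53616 features, 0 had several and 37518 none here, and all 16098 matched RefSeq (GRCh38.p14) by gene ID. No filter on dim features was applied.

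SW620 minus SW480 was fitted over all 14884 genes with limma 3.58.1 in R 4.3.3 (lmFit, eBayes, two-sided; prior df 8.39), adjusted by Benjamini-Hochberg at a threshold of 0.05. The fit was tested on simulated data with the spread of these genes. It recovered 3 of 50 changes of 0.3, 23 of 50 of 0.5 and 46 of 50 of 1 on the log2 scale. Only 125 genes were called there, against 5293 here, which makes the adjustment stricter than in the real data. The number of arrays limits the precision. Same-numbered arrays were checked for pairing. The members, lists, tests and named genes were chosen with earlier results of these data known. Named were, per subunit, up to 8 called genes in each direction without overlap of arrays, the brightest and dimmest, those nearest the threshold and those whose features disagree, and up to 4 called genes per partner list. Every other gene was named after their values were seen. Neighbours follow RefSeq gene order. No sequence from the arrays was used. Alternatives covered normalization, filters, variance model, features of a gene, the replicate block, a stricter threshold and each array left out.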

Additional observations from a re-analysis of the deposited data

How the results depend on the processing

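The 13 small subunit genes called became 9 (7 higher) at an adjusted p below 0.01 and 17 (14 higher) with a trended and robust variance, and the 19 large subunit genes became 15 and 21. Without any 1 array, 11 to 13 small subunit genes were called (8 to 11 higher, 2 to 3 lower) and 15 to 17 large subunit genes (10 to 11 higher, 5 to 6 lower), with median differences of 0.18 to 0.24 and of 0.0524 to 0.10. Over all genes 4590 to 4984 were called (2021 to 2253 higher, 2561 to 2731 lower), and of the partners 19 to 24 (11 to 14 higher, 8 to 10 lower). At an adjusted p below 0.01 in place of 0.05 the partners called fell to 17 of the 27, with 6 of the 12 lower ones. Centring on the 75th percentile feature gave 12 higher and 2 lower small subunit genes, 14 higher and 6 lower large subunit genes and a median of 0.23 and 0.0931, the highest of the scalings run. Cyclic loess gave 10 higher large subunit genes and a small subunit median difference of 0.18 and a large subunit median difference of 0.0571. The brightest large subunit gene, MRPL45, was not called under any setting, and its sign turned with a second quantile normalization (-0.0782), centring on the median feature (-0.0088), cyclic loess (-0.0597) and in some fits without 1 array (-0.0182 to 0.0290).

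The replicate numbers did not pair the arrays, since deviations of same-numbered arrays correlated between -0.0234 and -0.0089. With the replicate block all genes called came to 5215, with all genes higher at 2353 and all genes lower at 2862, and there were 12 small subunit genes (10 higher, 2 lower), 17 large subunit genes (11 higher, 6 lower) and 27 partners. MRPL16, MRPL21 and MRPS9 were the called members that no longer passed under the block. Probe intensities and detection calls were not used here, which leaves background correction as the authors set it, and the spread covers arrays, not cultures.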

Other observations

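The 5 transcripts that share a symbol stem with members without coding for a protein were measured as well. MRPL20-AS1, an antisense transcript at MRPL20, was lower in SW620, with 5.11, 5.05 and 5.32 in SW620, against 5.65, 5.46 and 5.44 in SW480 (-0.36, adjusted p = 0.0121 by limma). The arrays of the lines did not overlap, while MRPL20 itself differed by 0.0247 and did not pass. MRPL23-AS1, at 4.18 in SW620 and 4.03 in SW480, lay near the median feature and did not pass, like the pseudogenes MRPS31P5 (0.0313), MRPL45P2 (-0.0813) and MRPL42P5 (-0.0056).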
